A study of Saccharomyces cerevisiae with 9 samples.

Results

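The coat of COPII vesicles and the carriers that move proteins between the endoplasmic reticulum (ER) and the Golgi were followed here in yeast cells that overexpressed a green fluorescent protein. The list holds 35 genes out of the 7128 gene rows counted. It was drawn up by gene function, with earlier results of these data known, and has 8 genes of the inner coat and its regulators, 2 of the outer coat, 8 p24 proteins, 8 cargo receptors, 4 SNAREs and 5 Yip and Rer proteins. Counts of changed genes in it are therefore a description, and they are read against the share of all genes that changed. The cells were of the diploid laboratory strain BY4743 (MATa/α his3Δ1/his3Δ1 leu2Δ0/leu2Δ0 LYS2/lys2Δ0 met15Δ0/MET15 ura3Δ0/ura3Δ0). They carried the plasmid pTOW40836 with moxGFP (label MOXop), with EGFP (label GFPop) or without a GFP (label Vector), with 3 biological replicates each. moxGFP is a GFP variant without cysteines, and both GFPs were expressed from the TDH3 promoter, a strong promoter of a glycolytic gene. In all 3 groups the plasmid was multicopy and carried URA3 and a weak LEU2 allele as markers, so its copy number was not fixed and could differ between cells. All cultures grew in SC–Leu/Ura at 30 °C and were harvested in log phase, at an optical density of 1.0.

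Total RNA was sequenced with strand-preserving libraries, and the counts of each gene were compared across 9 libraries. The libraries held 8941674 to 9064524 gene counts with moxGFP, 7022201 to 9569895 with EGFP and 10643868 to 12959660 in the vector control. The entry of moxGFP took 4.11 to 31.1% of gene counts in the moxGFP libraries, and that of EGFP took 11.2 to 23.8% in the EGFP libraries. In the vector libraries these entries had at most 9 counts and at most 85 counts. The moxGFP entry also took 0.310 to 0.723% of gene counts in the EGFP libraries, and the EGFP entry 0.234 to 0.413% in the moxGFP libraries. The source of these counts was not tested. Each label was matched by its GFP as the larger of the 2 entries. moxGFP replicate 2 stood apart: ribosomal RNA took 61.2% of its gene counts, against 2.74 to 23.0% in the other 8 libraries, and its log2 CPM correlated across genes with those of the other moxGFP replicates by 0.804 and 0.807, where other replicate pairs had 0.949 to 0.975 (genes are not independent replicates). Results with moxGFP are therefore also given without this library for members whose call it changed, and for some other values. Not every value that moved is given in both forms. Against the vector control, for example, the log2 fold change of ERV15 turned from −0.09 to 0.35, and that of ERP6 went from −0.42 to −0.08. Haploid and mating-type genes, most of which a diploid represses, had 4 to 230 counts per library. Of the 9 genes of the strain check, 4 were called higher with moxGFP (14.8% of all genes) and 1 with EGFP (7.60% of all genes), and 0 lower. MF(ALPHA)1 was called with each GFP, with log2 fold changes of 3.97 with moxGFP and 1.76 with EGFP, on 10 to 230 counts per library. MF(ALPHA)2, MFA1 and HMRA1 were called with moxGFP. The part of these differences in the results was not tested. HIS3 had 374 to 2132 counts, and since his3Δ1 removes a part of that gene, this row does not check the strain. In such bulk samples, fewer cells with a transcript and less of it per cell cannot be told apart.

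Proteins made at the ER leave it in vesicles formed by the COPII coat. The membrane protein Sec12 loads the small GTPase Sar1 with GTP, Sar1 recruits the Sec23–Sec24 dimer, which binds cargo, and the Sec13–Sec31 cage then shapes the bud. Proteins that cannot bind Sec24 themselves use cargo receptors or the p24 proteins, SNAREs fuse the vesicles with the Golgi, and the COPI coat returns escaped proteins and the receptors.

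Stretches upstream of 3 members are shown because they hold letters known as binding motifs of stress factors and because these genes fell with at least 1 GFP. Hac1, the transcription factor of the unfolded protein response, binds motifs such as CAGCGTG and TACGTG, and Msn2 and Msn4, factors of the general stress response, bind AGGGG. The stretches are read 5′ to 3′ on the strand of the gene in the RefSeq genome of S288C, build R64, and capitals mark the motifs. That of SEC31 lies at chrIV:106913-106980 (plus strand), 295 to 228 bases before the start codon, and has AGGGG 3 times, read there as CCCCT from the other strand, beside 1 CAGCGTG. That of SFB3 lies at chrVIII:302024-302069 (minus strand) and holds TACGTG as CACGTA, 115 bases before the start codon. That of ERP1 lies at chrI:154863-154908 (minus strand), with TACGTG 164 bases before the start codon.
SEC31: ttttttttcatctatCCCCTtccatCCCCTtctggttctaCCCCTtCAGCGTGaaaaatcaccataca
SFB3: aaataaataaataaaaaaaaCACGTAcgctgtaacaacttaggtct
ERP1: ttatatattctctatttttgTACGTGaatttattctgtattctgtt
Within 500 bases before the start codon, on either strand, CAGCGTG was found in 1 of the 35 genes (2.9%), SEC31, against 2.3% of 6006 genes. TACGTG was found in 7 members (20%, against 13.1% of all genes), the heat shock core TTCNNGAA in 8 (22.9%, against 21.2%) and AGGGG in 14 (40.0%, against 34.1%). None of these motifs contains another, and a gene was counted once per motif. Of the 7 genes with TACGTG, SFB3, ERP1, YIP1 and YIP3 were called lower with at least 1 GFP, SED5 was called higher with moxGFP, and SEC12 and ERV25 were called in no comparison. These are matches of letters only.

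With at least 1 of the GFPs 15 of the 35 genes were called lower than in the vector control, where 16.6% of all genes tested were. The 15 include SEC23, SEC24 and SEC31 of the coat and the cargo receptors ERV29 and ERV46. The 35 genes together took 4434, 4283 and 3401 CPM (counts per 10 to the power 6 counts, scaled by TMM, edgeR's correction for library composition) in moxGFP replicates 1 to 3 and 3599, 3838 and 3615 CPM in EGFP replicates 1 to 3, against 9732, 7836 and 8538 CPM in vector replicates 1 to 3. No overexpressing library reached the lowest vector library. Without scaling, as a share of all gene counts, the sums were 0.498, 0.164 and 0.431% with moxGFP, 0.472, 0.489 and 0.465% with EGFP and 0.771, 0.831 and 0.865% in the vector control. The vector libraries were again above all others, and the lowest share was that of moxGFP replicate 2, the library with the most ribosomal RNA.
Gene by gene, 11 members were lower and 1 was higher with moxGFP than with the empty vector (FDR below 0.05 by edgeR's quasi-likelihood test, with the Benjamini-Hochberg adjustment made over all 6338 genes that passed the filter, the 35 members among them), where 14.0% of all genes tested were called lower and 14.8% higher. With EGFP 11 were lower and 0 higher, where 7.76% of all genes were called lower and 7.60% higher. In that edgeR test 19 of the 35 had an unadjusted p below 0.05, as had 1964 of all 6338 genes tested. DESeq2's Wald test called 15 members lower and 0 higher with EGFP, the same 11 and SEC24, SEC31, EMP24 and RER1, where it called 12.2% of all genes lower and 8.99% higher. The median log2 fold change of the members was −0.42 with moxGFP (all genes tested 0.14) and −0.47 with EGFP (all genes tested 0.09). All moxGFP libraries lay below all vector libraries for 12 members (22.4% of all genes), and all EGFP libraries did for 17 (21.2% of all genes). Both comparisons use the same 3 vector libraries, so they are not independent of each other. In their own values, SED4, SEC23, SFB3, ERV29, ERV46, YIF1 and YIP3 were called lower with each GFP. SEC24, SEC31, EMP24 and SEC22 were called lower with moxGFP, and SAR1, ERP1, SVP26 and YIP1 with EGFP.
Single libraries decided many of these calls. With EGFP, 2 genes stayed called in each of the 9 fits that left out 1 library, SFB3 and YIF1, and the count was 2 without vector replicate 1 or without EGFP replicate 1, 4 without EGFP replicate 2, 5 without EGFP replicate 3 or without vector replicate 3, and 17 without moxGFP replicate 2. The count over all genes moved too, between 274 called without vector replicate 1 and 2049 without moxGFP replicate 2, against 974 with all libraries. With moxGFP, 7 genes stayed called in each of these fits, SED4, SEC23, SEC24, SFB3, SEC31, ERV46 and YIF1, and the count was lowest at 7 without vector replicate 1, where 750 of all genes were called, against 1824 with all libraries.

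**Figure D1:**
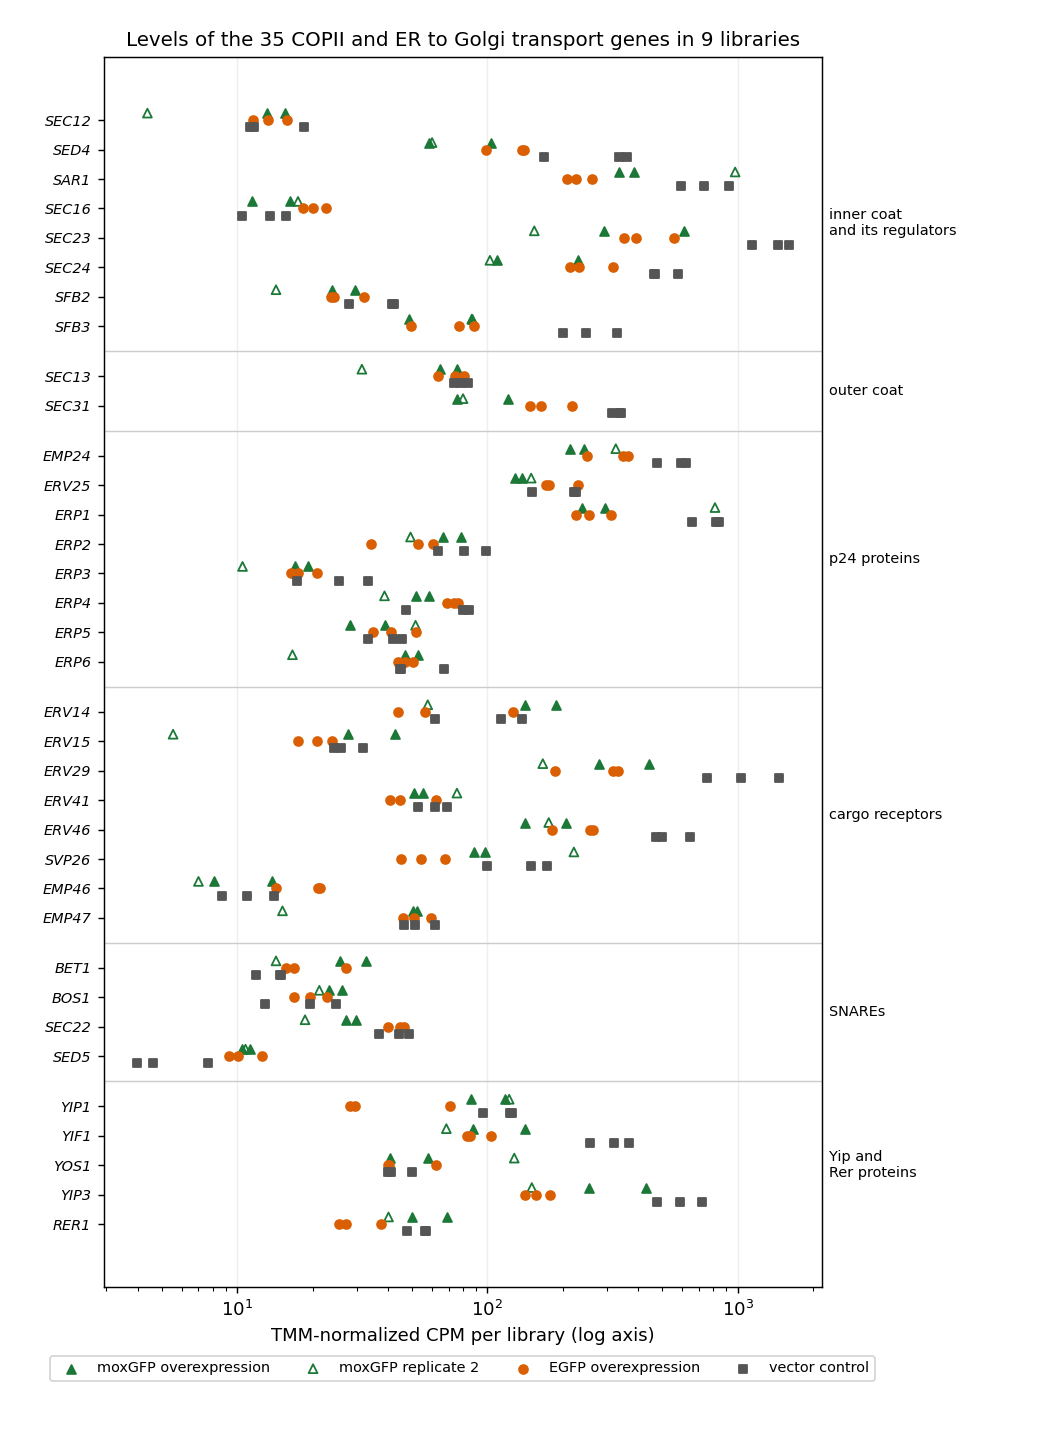
TMM-normalized CPM (log axis) of the 35 genes in each library, with moxGFP as green triangles (replicate 2 open), EGFP as orange circles and the vector control as grey squares, grouped by role. For SEC23, SFB3, ERV29, ERV46 and YIF1 the 6 overexpressing libraries lie below the 3 vector libraries, while for SEC12, SEC13, ERP5, ERV41 and BOS1 the groups overlap.

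The genes that fell were mostly those with a high mean level over all libraries, the vector libraries included. Of the 15 members with a mean of at least 100 CPM over the 9 libraries, a limit chosen after the values were seen, 10 were called lower with moxGFP and 10 with EGFP, with median log2 fold changes of −1.63 and −1.34. Among all 943 genes at that level, 33.8% were called lower with moxGFP and 23.0% with EGFP. Of the 20 members under 100 CPM, 1 was called lower with moxGFP and 1 with EGFP (10.5% and 5.10% of all genes at that level), with medians of −0.15 and −0.028. Genes of higher counts are measured with less counting error. The mean also includes the vector libraries, so a gene that fell from a high vector level passes the limit more readily. SFB3 averaged 74.1 CPM with moxGFP, 71.6 CPM with EGFP and 259 CPM in the vector control, and YIF1 99.0, 90.7 and 315 CPM. Both passed the limit only through the vector control. The part of either point in the split was not tested, and the split is a description only.

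**Figure D2:**
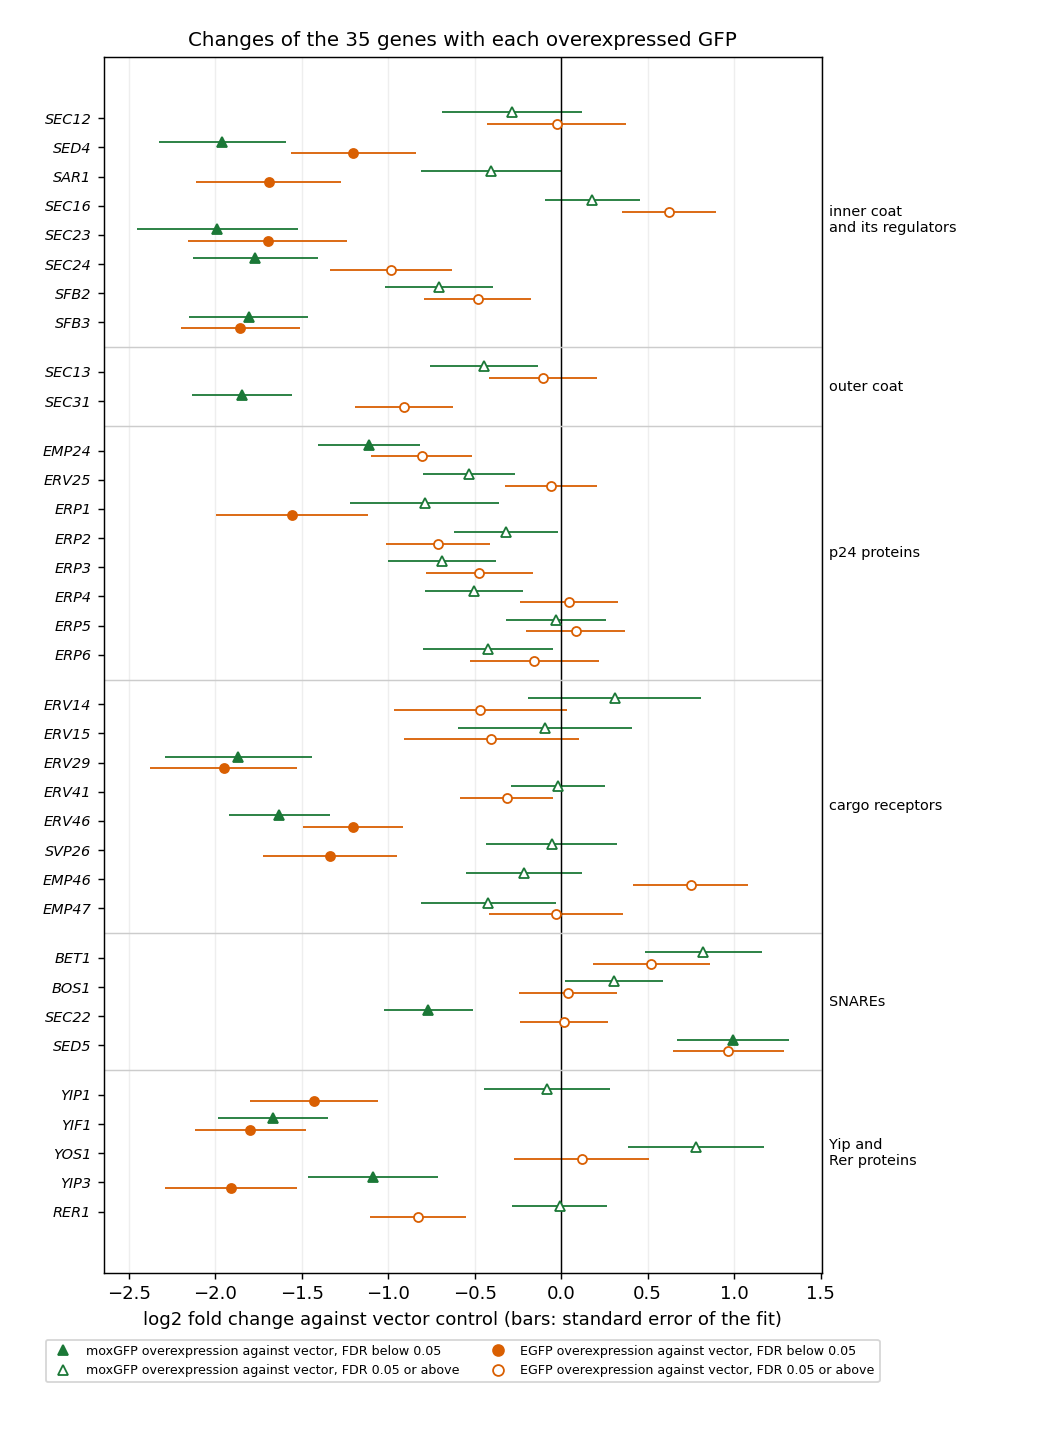
Fitted log2 fold change against the vector control (horizontal axis, bars are the standard error of the fit) of the 35 genes with moxGFP (green triangles) and with EGFP (orange circles), filled where the FDR was below 0.05. Filled symbols run from −1.99 to −0.77 on the lower side, and SED5 with moxGFP, at 0.99, is the filled symbol on the higher side.

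The inner coat and its regulators summed to 1263 ± 320 CPM with moxGFP and 1177 ± 159 CPM with EGFP, against 3264 ± 395 CPM in the vector control (SD, n = 3 each). With either GFP 4 of its 8 genes were called lower, and without moxGFP replicate 2 this was 5 with either, in fits that called more of all genes lower (18.8% with moxGFP and 17.2% with EGFP). Sec23 and Sec24 form the inner layer, and Sec23 also speeds up GTP hydrolysis by Sar1.
SEC23 (YPR181C) had 610.3, 154 and 294 CPM in moxGFP replicates 1 to 3, 392, 555 and 350.5 CPM in EGFP replicates 1 to 3 and 1457, 1605 and 1139 CPM in vector replicates 1 to 3. All 6 overexpressing libraries were below the vector libraries, and moxGFP replicate 2 was the lowest of them. SEC23 had a log2 fold change of −1.99 (SE 0.47, edgeR FDR = 0.011) with moxGFP and −1.70 (SE 0.46, edgeR FDR = 0.0312) with EGFP.
SAR1 (YPL218W), the GTPase that starts the coat, had 386, 978 and 334 CPM in moxGFP replicates 1 to 3, 227, 208 and 262 CPM in EGFP replicates 1 to 3 and 921, 593 and 734 CPM in vector replicates 1 to 3. The EGFP libraries were all below the vector libraries, whereas moxGFP replicate 2 was above all of them and the other moxGFP replicates below. Its log2 fold change was −1.69 (SE 0.42, edgeR FDR = 0.0206) with EGFP and −0.41 (SE 0.41, edgeR FDR = 0.466) with moxGFP. When that library was left out, the value for moxGFP was −1.06 (SE 0.29, edgeR FDR = 0.0107), a gained call.
Levels of different genes were compared per kilobase of coding length. SAR1 had the highest such level of the 35 genes in the vector control, 1308 CPM per kb, followed by ERP1 with 1173, ERV29 with 1159.7 and YIP3 with 1119 CPM per kb, whose library ranges overlapped that of SAR1. SEC16, a large scaffold protein of ER exit sites, had the lowest, 2.01 CPM per kb.
SEC24 and its homologs SFB2 and SFB3 encode alternative cargo-binding partners of Sec23. From the coding sequences of R64, Sec24 shares 61.8% of aligned residues with Sfb2 and 28.2% with Sfb3. SEC24 (YIL109C) had 231, 102 and 109.7 CPM in moxGFP replicates 1 to 3, 232, 317 and 214 CPM in EGFP replicates 1 to 3 and 580.1, 462 and 466 CPM in vector replicates 1 to 3. SFB3 (YHR098C), whose protein helps to load the plasma membrane proton pump Pma1, had 86.9, 86.6 and 48.8 CPM in moxGFP replicates 1 to 3, 49.7, 77.03 and 88.04 CPM in EGFP replicates 1 to 3 and 329, 199.8 and 248 CPM in vector replicates 1 to 3. SFB2 (YNL049C) had 29.7, 14.3 and 23.99 CPM in moxGFP replicates 1 to 3, 24.4, 23.6 and 32.1 CPM in EGFP replicates 1 to 3 and 42.2, 28.02 and 41.5 CPM in vector replicates 1 to 3. For SEC24 and SFB3 the 6 overexpressing libraries were below the vector libraries, and for SFB2 the groups overlapped.
The log2 fold change of SFB3 was −1.81 (SE 0.34, edgeR FDR = 0.00483) with moxGFP and −1.85 (SE 0.34, edgeR FDR = 0.00674) with EGFP. SEC24 fell by 1.77 on the log2 scale with moxGFP (SE 0.36, edgeR FDR = 0.00652), and with EGFP its value was −0.98 (SE 0.35, edgeR FDR = 0.0846). SFB2 had −0.70 and −0.48, neither of which passed the test. In the vector control the 3 paralogs stood at 181 CPM per kb for SEC24 (166 to 209), 92.8 for SFB3 (71.6 to 118) and 14.2 for SFB2 (10.7 to 16.04). This order of levels was the same in the EGFP libraries and in the moxGFP libraries, and the library ranges of the 3 genes did not overlap within any group.
SED4 encodes an ER membrane protein related to Sec12, with 43.1% identity over 455 aligned residues. SED4 (YCR067C) had 104, 60.1 and 58.6 CPM in moxGFP replicates 1 to 3, 99.1, 137 and 140.4 CPM in EGFP replicates 1 to 3 and 361, 169 and 336 CPM in vector replicates 1 to 3. SEC12 (YNR026C), the exchange factor of Sar1, had 13.2, 4.37 and 15.6 CPM in moxGFP replicates 1 to 3, 11.6, 15.8 and 13.3 CPM in EGFP replicates 1 to 3 and 11.6, 18.4 and 11.3 CPM in vector replicates 1 to 3. All overexpressing libraries were below the vector libraries for SED4, and the groups overlapped for SEC12, which was lowest in moxGFP replicate 2.
The log2 fold change of SED4 was −1.96 (SE 0.37, edgeR FDR = 0.00462) with moxGFP and −1.20 (SE 0.36, edgeR FDR = 0.0445) with EGFP. That of SEC12 was −0.28 and −0.03, and that of SEC16 was 0.18 and 0.62, none of which passed the test. Without moxGFP replicate 2 the value of SEC12 with moxGFP was 0.05, so its direction turned.

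In the outer coat SEC31 was lower with moxGFP than with EGFP or the empty vector. SEC31 (YDL195W) had 121, 79.9 and 75.8 CPM in moxGFP replicates 1 to 3, 164, 218 and 148 CPM in EGFP replicates 1 to 3 and 339.9, 341 and 314 CPM in vector replicates 1 to 3. No moxGFP library reached an EGFP library, and no EGFP library reached a vector library. Its log2 fold change was −1.84 (SE 0.29, edgeR FDR = 0.00235) with moxGFP against the vector control, −0.91 (SE 0.28, edgeR FDR = 0.0515) with EGFP against the vector control, which missed the threshold, and −0.94 (SE 0.28, edgeR FDR = 0.0483) for moxGFP against EGFP. Leaving out moxGFP replicate 2 gave −1.76 (SE 0.30, edgeR FDR = 0.000695), −0.95 (SE 0.25, edgeR FDR = 0.0101) and −0.80 (SE 0.29, edgeR FDR = 0.0584) in this order. The call against EGFP was thus lost, and the call of EGFP against the vector control gained. Of the fits that left out 1 library, the call against EGFP was kept only without moxGFP replicate 1.
SEC13 encodes the partner of Sec31 in the cage and is also a subunit of the nuclear pore. It had 57.2 ± 22.98 CPM with moxGFP, 72.8 ± 8.72 CPM with EGFP and 78.4 ± 5.03 CPM in the vector control (SD, n = 3 each), with overlapping groups and log2 fold changes of −0.45 and −0.11, neither past the test, and the value with moxGFP was −0.17 without moxGFP replicate 2. Per kb of coding length SEC31 and SEC13 had 86.7 (82.1 to 89.2) and 87.7 (81.9 to 93.2) CPM in the vector control, with overlapping ranges. With moxGFP they had 24.2 (19.8 to 31.7) and 64.04 (35.2 to 84.6) CPM per kb, with no overlap. With EGFP they had 46.2 (38.7 to 56.9) and 81.4 (70.9 to 90.1) CPM per kb, also with no overlap.

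The p24 proteins, which carry glycosylphosphatidylinositol-anchored cargo, summed to 1056 ± 346 CPM with moxGFP and 1008 ± 129 CPM with EGFP, against 1806 ± 210 CPM in the vector control (SD, n = 3 each). EMP24 was called lower with moxGFP and ERP1 with EGFP, and the other 6 passed no test. Emp24, Erv25, Erp1 and Erp2 are the subunits of the main p24 complex.
EMP24 (YGL200C) had 244, 326 and 213 CPM in moxGFP replicates 1 to 3, 366, 349.5 and 251 CPM in EGFP replicates 1 to 3 and 619, 477 and 593 CPM in vector replicates 1 to 3. All 6 overexpressing libraries were below the vector libraries. The log2 fold change of EMP24 was −1.11 (SE 0.29, edgeR FDR = 0.0178) with moxGFP and −0.81 (SE 0.29, edgeR FDR = 0.0857) with EGFP.
ERP1 (YAR002C-A) had 294, 812 and 239 CPM in moxGFP replicates 1 to 3, 311, 226 and 254 CPM in EGFP replicates 1 to 3 and 822, 657 and 843 CPM in vector replicates 1 to 3. In the EGFP libraries it was below every vector library, and moxGFP replicate 2 lay among the vector libraries, apart from the other moxGFP replicates. ERP1 had a log2 fold change of −1.55 (SE 0.44, edgeR FDR = 0.0364) with EGFP and −0.79 (SE 0.43, edgeR FDR = 0.18) with moxGFP. With that library left out, ERP1 had −1.54 (SE 0.29, edgeR FDR = 0.00128) with moxGFP, a gained call.
ERV25 and ERP2, the other subunits of that complex, had log2 fold changes of −0.53 and −0.32 with moxGFP and −0.06 and −0.71 with EGFP. The homologs ERP3, ERP4, ERP5 and ERP6 ran from −0.69 (ERP3) to −0.03 (ERP5) with moxGFP and from −0.47 (ERP3) to 0.08 (ERP5) with EGFP. ERP2 and ERP4 were the closest pair in sequence, with 71.7% identity, and ERP1 and ERP6 share 54.7%. Per kb of coding length ERP1 and EMP24 had 1173 (995 to 1278) and 920.1 (779 to 1012) CPM in the vector control, overlapping in range, and ERV25 followed with 314 (237 to 355) CPM per kb, below both.

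**Figure D3:**
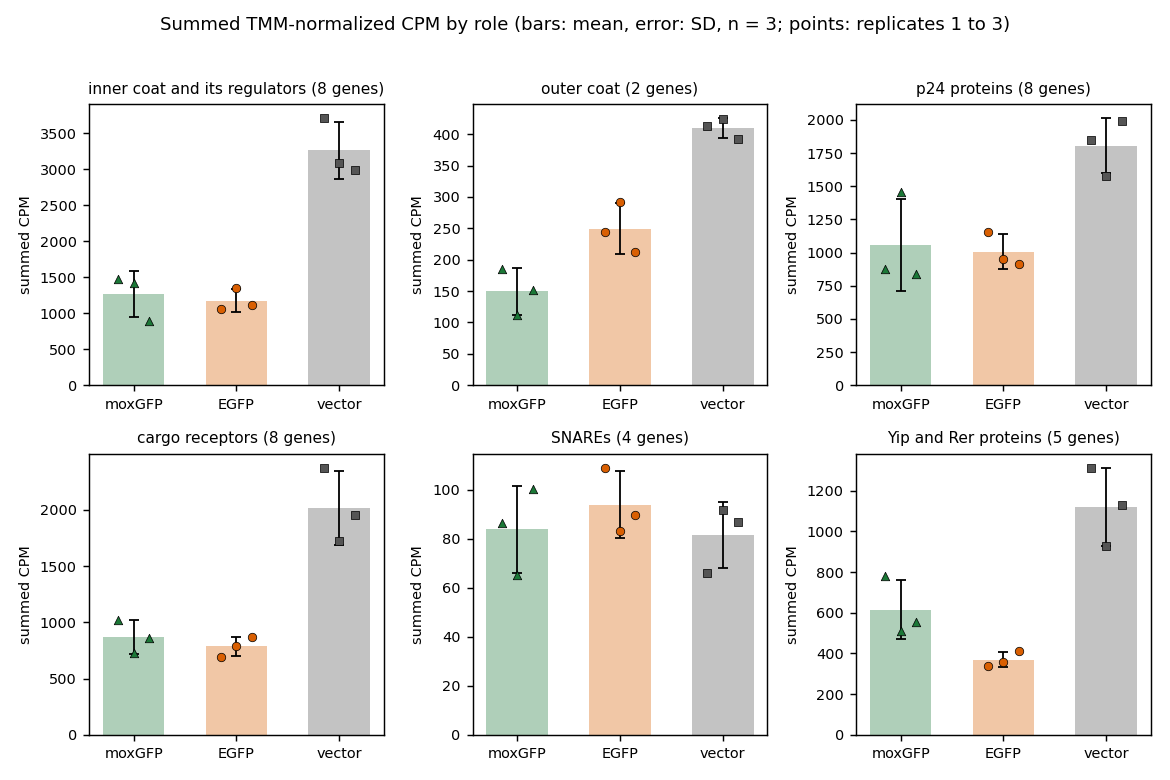
Summed TMM-normalized CPM of each role (vertical axes from 0) with moxGFP, with EGFP and in the vector control, with bars for the mean, error bars for the SD (n = 3) and points for replicates 1 to 3 from left to right. The inner coat sums to 1263, 1177 and 3264 CPM in this order, while the SNAREs sum to 84.0, 94.0 and 81.6 CPM.

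Cargo receptors summed to 870 ± 150.5 CPM with moxGFP and 786 ± 87.4 CPM with EGFP, against 2019 ± 331 CPM in the vector control (SD, n = 3 each). ERV29 and ERV46 were called lower with each GFP, SVP26 with EGFP, and 5 of the 8 receptors passed no test.
ERV29 encodes the receptor for soluble cargo such as the precursor of alpha-factor. ERV29 (YGR284C) had 443, 167 and 279.8 CPM in moxGFP replicates 1 to 3, 187, 319 and 334 CPM in EGFP replicates 1 to 3 and 1459.6, 757 and 1029 CPM in vector replicates 1 to 3. All 6 overexpressing libraries were below the vector libraries. ERV29 had a log2 fold change of −1.87 (SE 0.42, edgeR FDR = 0.00995) with moxGFP and −1.95 (SE 0.43, edgeR FDR = 0.0124) with EGFP.
ERV46 encodes a membrane protein that cycles between ER and Golgi in a complex with Erv41. ERV46 (YAL042W) had 205, 176 and 142 CPM in moxGFP replicates 1 to 3, 264, 257 and 182 CPM in EGFP replicates 1 to 3 and 500.1, 645 and 472 CPM in vector replicates 1 to 3, again with no overlap between the vector control and either GFP. The log2 fold change of ERV46 was −1.63 (SE 0.29, edgeR FDR = 0.00379) with moxGFP and −1.20 (SE 0.29, edgeR FDR = 0.0179) with EGFP. Its partner ERV41 had 60.5 ± 13.2 CPM with moxGFP, 49.2 ± 11.3 CPM with EGFP and 61.1 ± 8.21 CPM in the vector control (SD, n = 3 each), with log2 fold changes of −0.02 and −0.32 that did not pass the test.
SVP26 encodes a receptor for glycosyltransferases of the Golgi. SVP26 (YHR181W) had 97.4, 222 and 88.2 CPM in moxGFP replicates 1 to 3, 54.4, 44.99 and 67.8 CPM in EGFP replicates 1 to 3 and 173, 99.4 and 150.0 CPM in vector replicates 1 to 3. The EGFP libraries were below all others, and moxGFP replicate 2 was the highest of the 9. Its log2 fold change was −1.34 (SE 0.39, edgeR FDR = 0.0398) with EGFP against the vector control, −0.05 (SE 0.38, edgeR FDR = 0.921) with moxGFP against the vector control and 1.28 (SE 0.39, edgeR FDR = 0.0479) for moxGFP against EGFP. In the fit without moxGFP replicate 2 the last value was 0.78 (SE 0.27, edgeR FDR = 0.0543), so this call was lost, and moxGFP against the vector control gave −0.60 (SE 0.28, edgeR FDR = 0.104). Of the fits that left out 1 library, the call of SVP26 against EGFP was kept only without moxGFP replicate 1 or 3.
ERV14 encodes the yeast cornichon, a receptor for membrane proteins, and ERV15 its paralog with 60.1% identity. ERV14 (YGL054C) had 141, 57.7 and 189 CPM in moxGFP replicates 1 to 3, 56.5, 43.8 and 126 CPM in EGFP replicates 1 to 3 and 113, 61.9 and 138 CPM in vector replicates 1 to 3. ERV15 (YBR210W) had 27.6, 5.54 and 42.6 CPM in moxGFP replicates 1 to 3, 20.8, 17.5 and 23.9 CPM in EGFP replicates 1 to 3 and 24.3, 26.0 and 31.9 CPM in vector replicates 1 to 3. ERV15 was lowest in moxGFP replicate 2, and EGFP lay below the vector control in every library for ERV15, while ERV14 overlapped between all groups.
Neither ERV14 nor ERV15 passed the test in any comparison. Without moxGFP replicate 2, moxGFP against EGFP gave 1.17 (SE 0.40, edgeR FDR = 0.0486) for ERV14 and 0.80 (SE 0.27, edgeR FDR = 0.0433) for ERV15. In the vector control ERV14 stood at 250.2 (148 to 331) and ERV15 at 63.9 (56.6 to 74.4) CPM per kb.
EMP46 and EMP47 encode lectin-like receptors of glycoproteins and share 47.4% of aligned residues. EMP46 (YLR080W) had 8.06, 6.999 and 13.7 CPM in moxGFP replicates 1 to 3, 21.03, 21.5 and 14.3 CPM in EGFP replicates 1 to 3 and 8.65, 14.1 and 10.97 CPM in vector replicates 1 to 3. EMP47 (YFL048C) had 52.3, 15.2 and 50.6 CPM in moxGFP replicates 1 to 3, 50.95, 45.8 and 59.4 CPM in EGFP replicates 1 to 3 and 46.5, 61.7 and 51.3 CPM in vector replicates 1 to 3. The EGFP libraries were above all others for EMP46, by a narrow margin in EGFP replicate 3, and for EMP47 the groups overlapped, with moxGFP replicate 2 lowest.
EMP46 had a log2 fold change of 0.75 (SE 0.33, edgeR FDR = 0.15) with EGFP and −0.96 (SE 0.34, edgeR FDR = 0.0735) for moxGFP against EGFP, neither past the threshold. EMP47 was at −0.42 with moxGFP (−0.05 without moxGFP replicate 2) and −0.03 with EGFP. Per kb of coding length EMP47 had 39.7 (34.7 to 46.1) and EMP46 8.42 (6.48 to 10.6) CPM in the vector control.

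The summed level of the SNAREs of this step, which drive vesicle fusion, differed between the groups by less than the spread between replicates. It was 84.0 ± 17.8 CPM with moxGFP and 94.0 ± 13.5 CPM with EGFP, against 81.6 ± 13.6 CPM in the vector control (SD, n = 3 each), and the 3 groups overlapped. SED5 encodes the syntaxin of the early Golgi. SED5 (YLR026C) had 10.4, 10.8 and 11.2 CPM in moxGFP replicates 1 to 3, 12.5, 9.26 and 10.1 CPM in EGFP replicates 1 to 3 and 4.62, 7.64 and 3.96 CPM in vector replicates 1 to 3. Every overexpressing library was above the vector libraries. The log2 fold change of SED5 was 0.99 (SE 0.32, edgeR FDR = 0.0399) with moxGFP and 0.97 (SE 0.32, edgeR FDR = 0.0639) with EGFP, on 37 to 128 counts per library. Of the fits that left out 1 library, its call with moxGFP was kept only without moxGFP replicate 2 or vector replicate 2.
SEC22 (YLR268W) averaged 25.3 ± 5.88 CPM with moxGFP, 43.7 ± 3.36 CPM with EGFP and 43.2 ± 5.95 CPM in the vector control (SD, n = 3 each). Its log2 fold change was −0.77 (SE 0.26, edgeR FDR = 0.0443) with moxGFP and 0.02 with EGFP, which did not pass the test. The call with moxGFP was lost when any library was left out, and without moxGFP replicate 2 the value was −0.60 (SE 0.24, edgeR FDR = 0.0635). BET1 and BOS1, the other SNAREs of these vesicles, had 0.82 and 0.30 with moxGFP and 0.52 and 0.04 with EGFP, none past the test. Without moxGFP replicate 2, BET1 had 1.07 (SE 0.29, edgeR FDR = 0.00995) with moxGFP, a gained call.

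Yip1, Yif1 and Yos1 form a membrane complex required for the budding or fusion of these vesicles. With the Rab-interacting Yip3 and the ER retrieval receptor Rer1, their genes summed to 616 ± 146 CPM with moxGFP and 370 ± 36.8 CPM with EGFP, against 1121 ± 192 CPM in the vector control (SD, n = 3 each). YIF1 (YNL263C) had 141, 68.5 and 87.3 CPM in moxGFP replicates 1 to 3, 83.2, 104 and 85.1 CPM in EGFP replicates 1 to 3 and 368, 256 and 321 CPM in vector replicates 1 to 3. All overexpressing libraries were below the vector libraries. YIF1 had a log2 fold change of −1.67 (SE 0.32, edgeR FDR = 0.00495) with moxGFP and −1.80 (SE 0.32, edgeR FDR = 0.00567) with EGFP.
YIP1 (YGR172C), the partner of YIF1, had 118, 122 and 86.1 CPM in moxGFP replicates 1 to 3, 28.1, 29.6 and 70.7 CPM in EGFP replicates 1 to 3 and 126, 96.1 and 123 CPM in vector replicates 1 to 3. The EGFP libraries were below all others, and the moxGFP and vector libraries overlapped. YIP1 had a log2 fold change of −1.43 (SE 0.37, edgeR FDR = 0.0257) with EGFP and −0.08 (SE 0.36, edgeR FDR = 0.876) with moxGFP, and moxGFP against EGFP gave 1.35 (SE 0.37, edgeR FDR = 0.0351). This last difference was 1.30 (SE 0.35, edgeR FDR = 0.0173) without moxGFP replicate 2, but its call was lost without EGFP replicate 1 or 2, moxGFP replicate 1 or any vector library. YOS1, the third partner, had 0.78 with moxGFP and 0.12 with EGFP, neither past the test, and its value with moxGFP was 0.17 without moxGFP replicate 2.
YIP3 (YNL044W) had 432, 150.5 and 255 CPM in moxGFP replicates 1 to 3, 141, 157 and 177 CPM in EGFP replicates 1 to 3 and 719, 476 and 587 CPM in vector replicates 1 to 3. Its overexpressing libraries were all below the vector libraries, and moxGFP replicate 1 came closest. The log2 fold change of YIP3 was −1.91 (SE 0.38, edgeR FDR = 0.00923) with EGFP and −1.09 (SE 0.37, edgeR FDR = 0.0491) with moxGFP. Leaving out moxGFP replicate 2 moved the value with moxGFP to −0.79 (SE 0.30, edgeR FDR = 0.0532), a lost call. Of the fits that left out 1 library, the call of YIP3 with moxGFP was kept only without moxGFP replicate 1.
RER1 averaged 53.0 ± 14.5 CPM with moxGFP, 30.2 ± 6.59 CPM with EGFP and 53.5 ± 5.17 CPM in the vector control (SD, n = 3 each). With EGFP its log2 fold change of −0.83 (SE 0.28, edgeR FDR = 0.0673) missed the threshold although no EGFP library reached a vector library, and with moxGFP it was −0.01, or 0.15 without moxGFP replicate 2.

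The cysteine-free and the cysteine-bearing GFP were also compared with each other. With moxGFP, SVP26 and YIP1 were called higher and SEC31 lower than with EGFP, 3 of the 35 genes, where 7.48% of all genes were called higher and 7.07% lower. The median log2 fold change of the members was −0.11 (all genes tested 0.01), or 0.07 without moxGFP replicate 2 (all genes tested 0.02). In edgeR's test with all libraries 9 of the 35 had an unadjusted p below 0.05, as had 2113 of all 6338 genes tested. SAR1 had 1.28 (SE 0.41, edgeR FDR = 0.0572) and RER1 0.82 (SE 0.28, edgeR FDR = 0.0678), both short of the threshold. When moxGFP replicate 2 was left out, SAR1 had 0.68 (SE 0.28, edgeR FDR = 0.092) and RER1 1.02 (SE 0.26, edgeR FDR = 0.0126). Of the genes called lower with each GFP, SFB3 had 0.05 (SE 0.33) and ERV29 0.08 (SE 0.41), and without that library −0.04 and 0.41. The count of 3 was 0 when EGFP replicate 1 or 2 or any vector library was left out (edgeR's test, with 5 to 8 members at an unadjusted p below 0.05), 1 without EGFP replicate 3, 4 without moxGFP replicate 1 or 3, and 5 without moxGFP replicate 2. Over all genes the count was 259 without EGFP replicate 1 and 1394 without moxGFP replicate 2, against 922 with all libraries.
Without moxGFP replicate 2, 13 members were called for moxGFP against the vector control, 10 of the 12 called with all libraries and, in addition, SAR1, ERP1 and BET1, where 18.8% of all genes were called lower and 18.5% higher. In the comparison with EGFP, YIP1 stayed called, and ERV14, ERV15, YIP3 and RER1 were gained, all higher with moxGFP, where 11.6% of all genes were higher and 10.1% lower. For EGFP against the vector control, this library enters through the shared spread and scaling. There 17 members were called, 16 lower and SED5 higher, with SEC24, SEC31, EMP24, ERP2, SED5 and RER1 gained. Calls over all genes rose in the same fit to 17.2% lower and 14.8% higher, against 7.76% and 7.60% with all libraries.

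**Figure D4:**
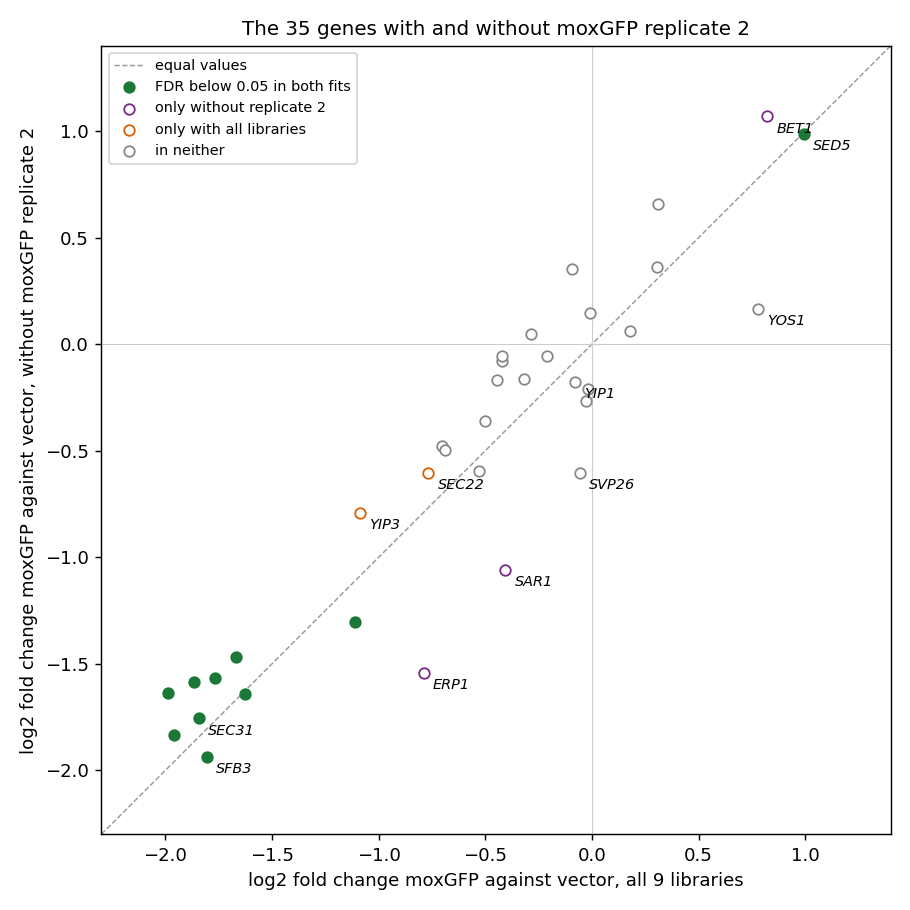
Log2 fold change of the 35 genes with moxGFP against the vector control, from all 9 libraries (horizontal axis) and without moxGFP replicate 2 (vertical axis), with the dashed line for equal values. SAR1 (−0.41 and −1.06) and ERP1 (−0.79 and −1.54) lie well below the line and were called without that library, and SEC22 and YIP3 were called with it.

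Neighbouring steps of the pathway were counted on lists also written with earlier results known, to be read against the 14.0% of all genes called lower and 14.8% higher with moxGFP, and the 7.76% and 7.60% with EGFP. Counts from the fit without moxGFP replicate 2 are read against 18.8% lower and 18.5% higher with moxGFP, and 17.2% and 14.8% with EGFP. Counts with EGFP at an unadjusted p below 0.05 in edgeR's test are read against 1964 of all 6338 genes tested. The gene of alpha-COP, a coatomer subunit, had been listed by its older name RET1, now that of an RNA polymerase III subunit, and was entered as COP1 (YDL145C) after the values were seen. Of 13 COPI coat and Arf genes, 5 were lower and 1 higher with moxGFP than in the vector control, and 4 lower and 0 higher with EGFP (edgeR's test, with 7 of the 13 at an unadjusted p below 0.05, and 0 higher also by DESeq2's Wald test). In the fit without moxGFP replicate 2, 5 were lower and 1 higher with moxGFP, and 6 lower and 1 higher with EGFP. The coatomer genes COP1, RET2 and RET3 were among the lower ones with each GFP. COP1 had −2.26 (SE 0.38, edgeR FDR = 0.00302) with moxGFP and −1.83 (SE 0.38, edgeR FDR = 0.0101) with EGFP, and RET2 had −1.56 (SE 0.28, edgeR FDR = 0.004) with moxGFP and −1.20 (SE 0.28, edgeR FDR = 0.0166) with EGFP. ARF1, the GTPase that recruits this coat, was higher with moxGFP than in the vector control, at 1.12 (SE 0.32, edgeR FDR = 0.0225).
Of 6 retrograde SNARE and Dsl1 tether genes, SEC20, a SNARE of the ER membrane, was the 1 called with each GFP. In the fit without moxGFP replicate 2, 1 was lower and 2 were higher with moxGFP, and 1 was lower and 1 higher with EGFP. SEC20 had 28.98 ± 13.04 CPM with moxGFP, 43.9 ± 2.54 CPM with EGFP and 118 ± 11.9 CPM in the vector control (SD, n = 3 each), with log2 fold changes of −2.02 (SE 0.34, edgeR FDR = 0.00298) with moxGFP and −1.43 (SE 0.33, edgeR FDR = 0.0154) with EGFP.
Among 16 Rab, TRAPP, tether and fusion genes, 2 were higher (TRS20 and BET5, TRAPP subunits) and 1 lower (GRH1, a tether of the early Golgi) with moxGFP, and 0 were called with EGFP at an FDR below 0.05 in edgeR's test (3 at an unadjusted p below 0.05, and 1, lower, by DESeq2's Wald test). Of 5 chaperones that pack single membrane proteins for ER export, GSF2 was lower with moxGFP, at −1.74 (SE 0.34, edgeR FDR = 0.00572). Leaving out moxGFP replicate 2 gave 2 lower with each GFP in either list, in fits that called more of all genes. Of the 16 Rab, TRAPP, tether and fusion genes, 2 were also higher with moxGFP in that fit.
At the entry to the ER, 2 of 9 translocon genes were lower with moxGFP (1 without moxGFP replicate 2) and 4 with EGFP. SEC61, the channel itself, had −1.47 (SE 0.33, edgeR FDR = 0.0093) with moxGFP and −1.28 (SE 0.33, edgeR FDR = 0.0242) with EGFP. Of 15 genes of ER folding and the unfolded protein response, 6 were lower with moxGFP and 4 with EGFP, and without moxGFP replicate 2 it was 8 with either, where 18.8% of all genes were lower with moxGFP and 17.2% with EGFP.
KAR2, the ER Hsp70, averaged 323 ± 79.9 CPM with moxGFP, 840.2 ± 110.4 CPM with EGFP and 1398 ± 105 CPM in the vector control (SD, n = 3 each). Its log2 fold change was −2.11 (SE 0.31, edgeR FDR = 0.00167) with moxGFP against the vector control and −1.38 (SE 0.30, edgeR FDR = 0.0158) for moxGFP against EGFP. With EGFP against the vector control it was −0.73 (SE 0.30, edgeR FDR = 0.118), which did not pass the test.

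In the R64 annotation none of the 35 genes overlaps another annotated gene or has a near copy (90% identity or more across 50% or more of the coding sequence). SAR1, ERV41, BET1, BOS1, YOS1 and YIP3 have an intron in the coding sequence, 6 of the 35. The encoded proteins had a median of 0.97% cysteine, against 1.18% over the 6008 coding genes, and Bet1, Bos1, Sed5 and Yos1 had none.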

How the data were processed

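RNA from 3 groups of 3 libraries was prepared with hot phenol, TruSeq stranded total RNA kits and ERCC spike-ins and sequenced on an Illumina NextSeq. The authors checked reads with FastP, aligned them with HISAT2 2.2.0, handled them with SAMtools 1.11, quantified them with StringTie and named edgeR 3.28.1 for expression analysis. They deposited raw counts per gene, whole numbers without normalization, in a table of 7220 rows with 92 spike-ins. The genome build, annotation and strand setting of the counting are not given in the sources used here, and no column went unused for want of a sample.

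From the 7128 gene rows, filterByExpr kept 6338. edgeR 4.0.16 (R 4.3.3) scaled them by TMM and fitted its quasi-likelihood test to all 9 libraries without a replicate block. A gene was called where its FDR (Benjamini-Hochberg, adjusted across the 6338 genes) was below 0.05. Standard errors (SE) are those of the fit, and levels are TMM-normalized CPM, where 3 counts are worth 0.225 to 0.875 CPM (counting error only). The labels give replicates a number and do not say whether same-numbered libraries belong together. Deviations from the group mean correlated by −0.33 to 0.23 for same-numbered libraries, and by −0.25 to 0.31 for other libraries of different groups. Those of moxGFP replicate 2 correlated by −0.86 with those of each other moxGFP replicate. With 1 library setting the deviations of its group, this check cannot decide about pairing. No replicate pair agreed within sampling noise (smallest chi-square per degree of freedom 44.0). The labels name biological replicates without saying how the cultures were separated, so p-values measure the spread between these samples.

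The members and all lists were chosen with earlier results of these data known. Per-library values are given for members called in any comparison (at most 10 per comparison and direction, by absolute log2 fold change) and for 4 paralog groups, and other lists name at most 3 called genes per comparison. Alternatives were DESeq2 1.42.0 size factors and Wald test, library sizes alone, ERCC library sizes, no filter, 2-group fits, the replicate block, no transgene, marker and rRNA rows, and leaving out each library. Names, coding lengths and sequences come from RefSeq's R64, matched for 6048 gene rows by locus tag. Sequences were read with Biopython 1.88 and BLAST 2.17.0, and figures were drawn with matplotlib 3.10.9.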

Additional observations from a re-analysis of the deposited data

Results flagged for a closer look

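For 3 of the 35 genes the response to moxGFP and the response to EGFP differed by the test of the difference itself, moxGFP against EGFP. Of all genes tested, 7.48% were called higher and 7.07% lower in this test, so the count is a description only. SEC31, the outer coat gene, was lower with moxGFP, with a log2 fold change of −0.94 (edgeR FDR = 0.0483). SVP26, the receptor for glycosyltransferases, was higher with moxGFP, with a log2 fold change of 1.28 (edgeR FDR = 0.0479). YIP1 was higher with moxGFP, with a log2 fold change of 1.35 (edgeR FDR = 0.0351). All moxGFP libraries lay on that side of all EGFP libraries in each case. Without moxGFP replicate 2, YIP1 stayed called (edgeR FDR = 0.0173), and SEC31 (edgeR FDR = 0.0584) and SVP26 (edgeR FDR = 0.0543) did not. YIP1 was not called without EGFP replicate 1 or 2, moxGFP replicate 1 or any vector library. Of the fits that left out 1 library, SEC31 stayed called only without moxGFP replicate 1, and SVP26 only without moxGFP replicate 1 or 3. SEC31 was also not called with DESeq2's size factors or with no filter. Of the 3 calls, 0 were kept in every fit that left out 1 library.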

How the results depend on the processing

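No call of a named member changed direction under any alternative run. For EGFP against the vector control, the 11 called members became 0 in edgeR's test with library sizes alone (8 at an unadjusted p below 0.05) and 0 with ERCC library sizes (6). They became 17 in a fit of the 2 groups, 7 with the replicate block and 2 to 17 when 1 library was left out. Each count of 17 held 16 lower and 1 higher. Over all genes, library sizes alone called 0.536% lower and 1.28% higher, the 2-group fit 16.7% and 14.2%, and the block 6.15% and 5.49%. The median of −0.47 became −0.026 with library sizes alone, where the median of all genes was 0.52. For moxGFP against the vector control, the 12 called members became 1 with library sizes alone (SFB3), 0 with ERCC library sizes (8 at an unadjusted p below 0.05) and 7 to 13 when 1 library was left out, and the median of −0.42 ran between −0.64 and −0.36 in the last case. Over all genes, library sizes alone called 2.27% lower and 1.64% higher, and 750 to 2388 genes were called when 1 library was left out. For moxGFP against EGFP, the 3 called members became 0 in edgeR's test with library sizes alone (3 at an unadjusted p below 0.05) and 0 with ERCC library sizes (0). They became 0 in a fit of the 2 groups (7), 0 with the replicate block (9) and 6 with DESeq2's Wald test. The count was 0 to 5 when 1 library was left out. Over all genes, the 2-group fit called 2.01% lower and 1.9% higher, the block 5.19% and 4.2%, and the Wald test 10.1% and 12.8%. The members' median of −0.11 became −0.54 with library sizes alone (all genes −0.47) and −0.25 to 0.07 without 1 library. The cause of these changes was not tested. The block lost SED4, SEC23, ERP1 and SVP26 for EGFP and SEC22 and SED5 for moxGFP. Whether same-numbered libraries belong together is not known, so these losses are not read either way. Under these scalings the members' median stayed below that of all genes in both comparisons with the vector control, by 0.55 with library sizes alone and 0.63 with ERCC for EGFP, and by 0.44 and 0.57 for moxGFP. With all genes, ERCC scaling left 21 calls for EGFP and 28 for moxGFP. DESeq2's size factors, no filter and leaving out the transgene, marker and rRNA rows kept the counts of called members within 1.5 times. At 15 counts for SEC12 in moxGFP replicate 2 and 19 for ERV15, low counts limit those values most.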
